A study of Mus musculus with 32 samples.

Results

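The genes described here encode the proteins of the cytosolic ribosome. They were taken as the protein-coding genes whose symbol has the form of a ribosomal protein name (Rpl or Rps with a number, Rplp0 to Rplp2 and Rpsa) in the deposited neurite enrichment tables. This gave 82 of the 55573 genes of the count table, 50 of the large (60S) subunit and 32 of the small (40S) subunit. All 82 had enough counts to be tested in every comparison below. The fusion gene Fau, and Rack1, which also supply ribosomal components, fall outside the naming rule and are given apart.

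Mouse hippocampal neurons from newborn pups were grown on inserts with a porous membrane, so that neurites (axons and dendrites) crossing the pores could be collected apart from the somata. The soma fraction also keeps neurites that did not cross. WT neurons were C57BL/6, and Mettl3 KO neurons came from Mettl3Flox/Flox animals. Both genotypes, WT included, received at DIV7 an AAV with Cre and dTomato under the neuronal hSyn promoter (50000 viral genomes per cell). From DIV14 the activity of all cultures was blocked with TTX (1 µM) together with D-AP5 (50 µM), over 16 h. At DIV15 they were left untreated (Ctrl) or depolarised with 55 mM KCl for 2 h. Each of the 8 combinations of genotype, fraction and treatment had 2 RNA-seq libraries, made from 50 ng of RNA of pooled pups, with a separate litter for each duplicate. A further data set, DART-seq, covers the same genotypes, fractions and treatments. It reads m6A through C-to-U editing next to the methylated adenosine.

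A ribosome is built from ribosomal RNA and a set of ribosomal proteins that the cell needs in about equal numbers. Most of the mRNAs for these proteins are short, abundant and start with a run of pyrimidines, the 5′ terminal oligopyrimidine (TOP) motif, through which mTOR signalling controls their translation as a group. Ribosomal protein mRNAs are known constituents of axons and dendrites, where ribosomes translate far from the cell body.

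The start of these mRNAs is shown first, because the TOP motif is known for this family and the naming rule did not use it. RefSeq start-site sequences (GRCm38.p6) matched 62 of the 82 genes, with 74 annotated starts. A run of at least 8 pyrimidines within 5 bases of a start was found in 24 of the 62 genes (38.7%), and in 11.4% of all 27025 genes with such a sequence. The windows below cover the 15 bases before and the 15 bases from the annotated start, with the pyrimidine run in capitals, and were chosen after the runs were seen, to show long and short ones.
Rpl13a, chr7:45128731-45128760, minus strand: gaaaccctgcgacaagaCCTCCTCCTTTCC
Rpl35, chr2:39005117-39005146, minus strand: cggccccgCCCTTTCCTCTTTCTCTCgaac
Rpl7a, chr2:26910792-26910821, plus strand: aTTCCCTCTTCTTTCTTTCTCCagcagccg
Rps10, chr17:27635230-27635259, minus strand: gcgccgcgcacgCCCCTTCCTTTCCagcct
Rps27, chr3:90213634-90213663, minus strand: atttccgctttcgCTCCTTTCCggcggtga
Rps2, chr17:24720048-24720077, plus strand: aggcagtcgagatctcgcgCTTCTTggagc
Rplp0, chr5:115559452-115559481, plus strand: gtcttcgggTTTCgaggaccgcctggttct
Rpsa, chr9:120127751-120127780, plus strand: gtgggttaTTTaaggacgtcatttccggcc
The first 5 of these windows hold long runs. Rps2, Rplp0 and Rpsa, which are described below for their neurite levels, have short runs at the annotated start. The letters CTTTCC, searched on both strands from 20 bases before to 30 bases after the start, were present on the coding strand in 11 of 62 genes (17.7%) against 2.83% of all genes. They were present as GGAAAG in 1 gene (1.61%) against 2.69%. CTTTCC is made of pyrimidines and so overlaps the runs counted above, and an annotated start can be some bases away from the one the cell uses.

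Library totals lay between 33789183 and 71394235 counts on genes, of which 222988 to 1512905 lay on the 82 genes. Mettl3 was lower in Mettl3 KO than in WT libraries of the same fraction and treatment in all 4 cases: 8.69 and 11.6 CPM (counts scaled to library size, here with TMM factors) against 17.3 and 16.7 in Ctrl soma, 4.15 and 6.77 against 12.5 and 12.3 in Ctrl neurites, 8.93 and 6.11 against 15.2 and 13.2 in KCl soma, and 7.90 and 3.88 against 10.9 and 8.90 in KCl neurites. The counts cover the whole Mettl3 gene, including exons outside the floxed part. The KCl-treated Mettl3 KO soma and neurite libraries labelled replicate 1 stood apart. The sum of 10 neuronal markers was 2071 and 1190 CPM in them and lay between 3755 and 6963 CPM in the other 14 libraries. They held 3511 and 6963 CPM of 7 oligodendrocyte lineage markers, where no other library exceeded 203 CPM. Astrocyte markers were present in every library, at summed levels of 1246 to 18711 CPM.

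A further library stood apart in the ribosomal protein genes themselves. In Mettl3 KO Ctrl soma, replicate 2 had 0.457% of its counts on the 82 genes and replicate 1 had 1.55%. No other library was below 1.16%. Of the 82 genes, 77 were lower in this library than in every other one, 75 were at least 2-fold lower than in replicate 1, and 59 at least 4-fold lower. The ratio was lowest for short mRNAs. The median log2 ratio of replicate 2 to replicate 1 was -2.66 for the 54 genes with a principal mRNA under 1000 bases. It was -1.83 for the 22 genes of at least 1000 and under 2000 bases and -1.28 for the 6 longer ones. Where the annotation ranked several transcripts alike, the longest was taken as the principal mRNA. Among the 6, Rps20 (3706 bases) and Rpl18 (2989 bases) had ratios of -2.65 and -2.59, near the median of the short ones. The 5 genes that were not lower were Rpl3, Rpl3l, Rpl4, Rpl7l1 and Rpl22, with mRNAs of 1351, 1375, 1538, 2606 and 2051 bases.

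**Figure D1:**
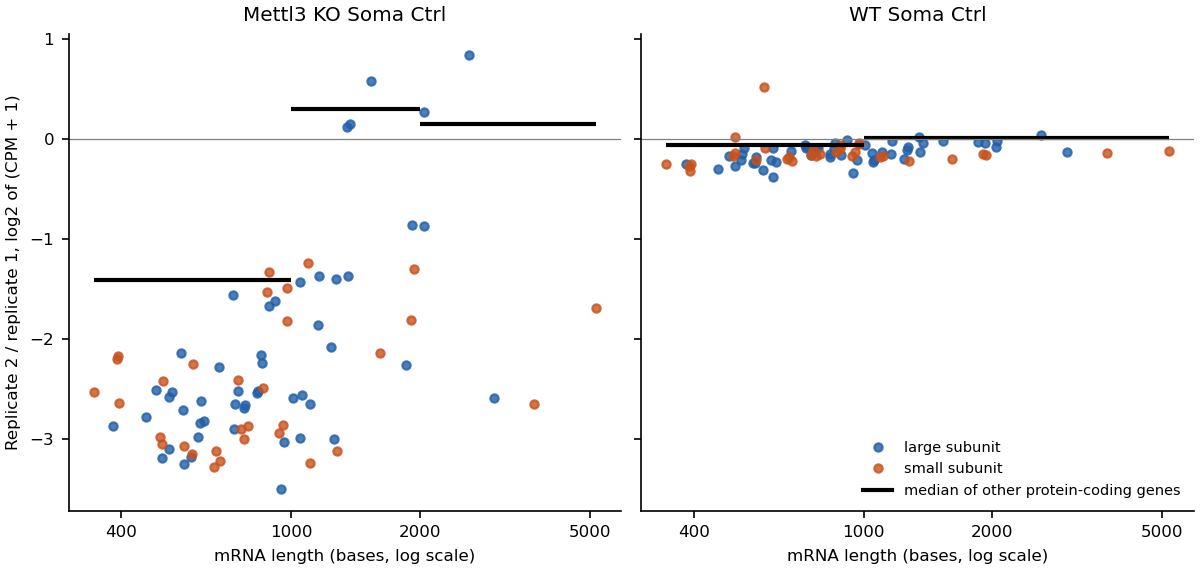
Log2 ratio of replicate 2 to replicate 1, on CPM + 1, against the length of the principal mRNA in bases (log scale), for Mettl3 KO Ctrl soma (left) and WT Ctrl soma (right). Each point is a ribosomal protein gene, blue for the large and orange for the small subunit, and black bars give the median of the other protein-coding genes in 3 length classes. In Mettl3 KO the points lie mostly below -1, with a median of -2.54, while in WT they lie near 0, with a median of -0.15.

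Short mRNAs of other proteins moved with them. For 733 other protein-coding genes under 1000 bases the median log2 ratio was -1.42, against 0.30 for 2680 genes of at least 1000 and under 2000 bases and 0.15 for 10055 longer ones. Other short mRNAs made up 1.33% of this library and between 4.18% and 7.84% of the other 15. Ribosomal protein mRNAs have a median length of 843 bases and protein-coding genes one of 3067. What set this library apart was not tested. Results that compare this library with others are given below with and without it.

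**Figure D2:**
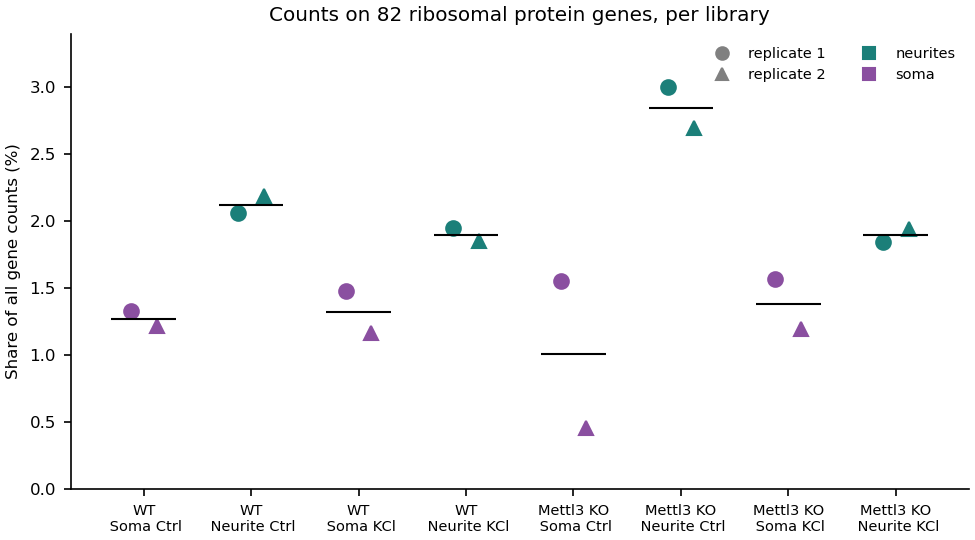
Share of all gene counts, in percent, taken by the 82 ribosomal protein genes in each of the 16 libraries (circles, replicate 1; triangles, replicate 2; green, neurites; purple, soma; black bars, mean of the 2 libraries). Neurite libraries lie between 1.85% and 3.0%, above all soma libraries, which lie between 1.16% and 1.57% apart from Mettl3 KO Ctrl soma replicate 2 at 0.457%.

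Ribosomal protein mRNAs took a larger share of the library in neurites than in soma in each genotype and treatment. In WT Ctrl soma gave shares of 1.33% and 1.22% and neurites shares of 2.06% and 2.19%. With KCl it was 1.47% and 1.16% in WT soma against 1.95% and 1.85% in WT neurites. In Mettl3 KO Ctrl neurites it reached 3.0% and 2.696%, the highest of all groups, and in KCl-treated Mettl3 KO neurites it was 1.85% and 1.94%. The neurite and soma libraries did not overlap in any of the 4 pairs of groups. The share of other short mRNAs was higher in neurites as well, again without overlap in any of the 4 pairs. In WT Ctrl it was 4.72% and 4.42% in soma against 6.28% and 6.59% in neurites.

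The level of single genes spanned a wide range. Per kilobase of deposited exon length in WT Ctrl soma, the highest levels were those of Rplp1 with 322 ± 42.5 CPM per kb (SD, n = 2), Rpl41 with 311 ± 46.8 and Rplp0 with 298 ± 19.4. Rplp0, Rplp1 and Rplp2 form the stalk of the large subunit that recruits translation factors, and Rpl41 is the shortest of the ribosomal proteins. These 3 levels differ by less than the SD of Rplp1. The lowest levels were those of Rpl3l with 0.15 ± 0.01 CPM per kb, Rps10 with 3.88 ± 0.14 and Rpl36al with 7.67 ± 0.39. Rpl3l, the striated muscle paralog of Rpl3, was the 1 gene of the set that was close to absent. The exon length used here joins all annotated isoforms. Divided by the principal mRNA instead, Rpl41 ranked highest, Rplp1 moved to rank 9, Rplp0 to rank 8, and the lowest 2 genes stayed Rpl3l and Rps10. The authors counted reads that match several places, and 239 ribosomal protein pseudogenes carried another 35.9 to 45.2 counts for every 100 counts on the genes, so reads can be shared between a gene and its copies.

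In WT Ctrl neurons, which genes were enriched in neurites was asked by comparing neurites with soma in 4 libraries. Of the 82 genes, 52 were higher in neurites by at least 1.5-fold at an adjusted p of 0.05 or less (edgeR quasi-likelihood test, Benjamini-Hochberg over 23200 genes) and 0 were lower, by DESeq2 also 0. No ribosomal protein gene was lower at an unadjusted p of 0.05 or less, where 18.4% of all genes were. Among all genes tested, 9.01% were called higher and 4.54% lower. The median log2 fold change was 0.76 for ribosomal protein genes, a 1.69-fold difference, against -0.098 for all genes. The genes ranged from -0.053 to 1.83, and 80 of 82 were above 0, as were 42.9% of all genes. At any fold, 65 passed the adjusted p, and 10.9% of all genes did so in this direction. Both neurite libraries were above both soma libraries for 77 of the 82 genes, which holds for 31.3% of all genes.

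**Figure D3:**
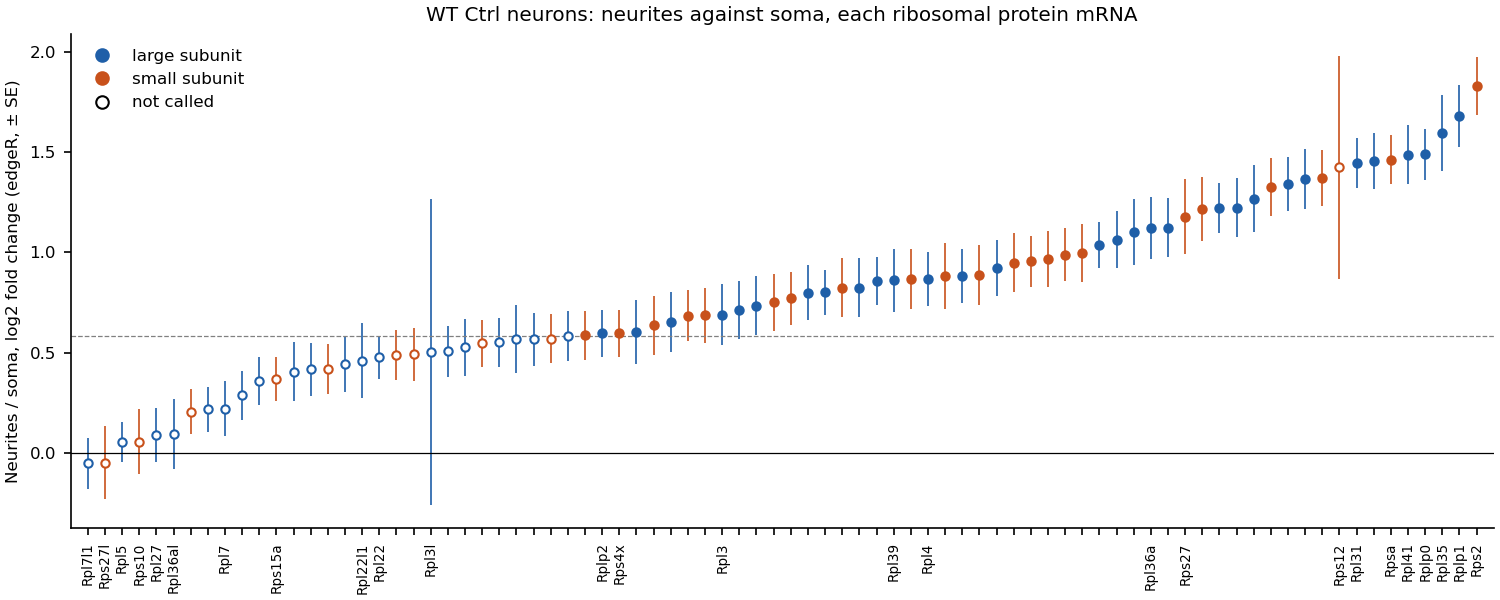
Log2 fold change of neurites over soma in WT Ctrl neurons (edgeR, y axis, ± SE, 2 libraries per fraction) for each of the 82 genes in order of the value (x axis, genes described in the text labelled); blue, large subunit; orange, small subunit; filled, called; dashed line, 1.5-fold. Values run from -0.053 for Rpl7l1 to 1.83 for Rps2, and 52 genes are called.

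The stalk proteins and Rpsa were among the enriched mRNAs. The soma libraries held 517 and 471 CPM of Rplp0, and the neurite libraries 1357 and 1548 CPM. Its log2 fold change was 1.49 ± 0.13 (SE), with an adjusted p of 0.00014 from edgeR. Rplp1 rose from 176 and 146 CPM to 507 and 571 CPM, a log2 fold change of 1.68 ± 0.16. Its stalk partner Rplp2 changed less, from 120 and 104 CPM to 172 and 183 CPM, a log2 fold change of 0.60 ± 0.12 that lies just past the 1.5-fold limit. Rpsa, a small subunit protein also known as the laminin receptor, had 174 and 156 CPM in soma and 462 and 489 CPM in neurites, a log2 fold change of 1.46 ± 0.12. In all 4 genes the libraries of the 2 fractions were apart.

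Among the other large subunit genes, Rpl35 and Rpl41 had the highest values, and Rpl31 was close to them. Rpl35 lies near the exit of the peptide tunnel and had 207 and 163 CPM in soma against 504 and 667 CPM in neurites, a log2 fold change of 1.60 ± 0.19. Rpl41 had 402 and 324 CPM against 991 and 1140 CPM (log2 1.49 ± 0.15), and Rpl31 110 and 93.9 CPM against 275 and 307 CPM (log2 1.45 ± 0.13). At the other end, Rpl5, which binds 5S rRNA with Rpl11, had 196 and 186 CPM in soma and 209 and 206 CPM in neurites, a log2 fold change of 0.052 ± 0.099 with an adjusted p of 0.74. Rpl27 had 144 and 136 CPM against 157 and 155 CPM (log2 0.089 ± 0.13). Over the 50 large subunit genes, 30 were called and the median was 0.72.

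Over the 32 small subunit genes, 22 were called and the median was 0.80, so the subunits differed by less than the spread within each. Rps2, a protein near the mRNA entry of the 40S subunit, had the highest value of the whole set. It had 470 and 415 CPM in soma and 1501 and 1787 CPM in neurites, a log2 fold change of 1.83 ± 0.14 with an adjusted p of 0.000114 in edgeR. Rps10 was at the low end with 9.19 and 8.74 CPM against 8.99 and 10.5 CPM, a log2 fold change of 0.055 ± 0.16. Rps12 is a case of replicates that disagree: its neurite libraries held 405 and 123 CPM and its soma libraries 75.9 and 110 CPM. Its log2 fold change of 1.42 had an SE of 0.56 and did not pass the test (adjusted p = 0.0984, edgeR).

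Paralogs were compared with the gene they resemble. Rpl36a was called, with a log2 fold change of 1.12 ± 0.15, and Rpl36al had 0.093 ± 0.17. Rps27 was called with 1.18 ± 0.19, and Rps27l, known as a p53 target, had -0.050 ± 0.18. Rpl3 was called with 0.69 ± 0.15, and Rpl3l gave 0.50 ± 0.76 at under 1 CPM. In the pairs where neither gene was called, Rpl7 had 0.22 ± 0.14 and Rpl7l1 -0.053 ± 0.13, and Rpl22 had 0.48 ± 0.11 and Rpl22l1 0.46 ± 0.19. The difference within a pair was not tested. Rps4x and Rpl39, whose paralogs are not in the set, were called with 0.60 ± 0.12 and 0.86 ± 0.16.

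Across the 82 genes, the log2 fold change had a Spearman rho of 0.47 with the mean count and of -0.19 with mRNA length. These are descriptions over genes measured in the same 4 libraries. For 928 other protein-coding genes with mRNAs under 1000 bases the median was 0.10, against 0.82 for the 54 ribosomal protein genes of that length and 0.69 for the 28 longer ones. Markers of other cells also differed between the fractions. The sum of 11 astrocyte markers was 1246 to 1265 CPM in WT Ctrl soma and 2094 to 3364 CPM in neurites, with 6 of 11 called higher. The sum of 7 microglia markers was 10.7 to 11.8 CPM against 17.8 to 19.8 CPM, with 1 of 6 tested called, and that of 7 oligodendrocyte lineage markers 60.8 to 69.4 CPM against 120.2 to 123.5 CPM, with 2 of 7 called. For 12 fibroblast and vessel markers it was 13.98 to 19.1 CPM against 35.6 to 84.5 CPM, with 5 of 9 tested called, and for 10 neuronal markers 4501 to 4662 CPM against 5941 to 6512 CPM, with 2 called. Their part in the result was not tested, and fewer cells of a type cannot be told apart from less RNA per cell in these bulk samples.

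The count of 52 rested on the libraries that entered the fit. It was 36 without soma replicate 2 (4.23% of all genes), 59 without neurite replicate 1 (9.33%) and 61 with the 4 libraries alone (10.6%), but 0 when all 16 libraries shared the estimate of the spread, where 0% of all genes were called. In that fit the median was 0.86 and the log2 fold change of Rps2 1.93, with an adjusted p of 0.245 in edgeR. The common biological coefficient of variation was 0.15 in the WT fit and 0.49 in the fit of Mettl3 KO neurites and soma.

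The same comparison in WT neurons after KCl gave 33 genes higher in neurites by the same rule and 0 lower, against 6.87% and 2.73% of 23028 genes tested. For the lower direction DESeq2 also called 0, and 1 gene, Rpl22l1, had an unadjusted p of 0.05 or less, against 13.2% of all genes. The median log2 fold change was 0.51, against -0.033 for all genes, and 77 of 82 genes were above 0 (47.2% of all genes). All 33 were among the 52 called in Ctrl, which is 63.5% of that list. The 2 comparisons use different libraries, but they share the estimate of the spread from 8 WT libraries, and Ctrl and KCl neurons share a litter. The 2 lists are therefore not independent.

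The 5 smallest p belonged to Rpsa, Rps2, Rpl31, Rplp0 and Rplp1. Rpsa had 201 and 175 CPM in KCl soma and 483 and 431 CPM in KCl neurites, a log2 fold change of 1.30 ± 0.12 (adjusted p = 0.00034, edgeR). Rps2 had 551 and 451 CPM against 1434 and 1277 CPM, a log2 fold change of 1.45 ± 0.14. Rplp0 had 652 and 529 CPM against 1312 and 1282 CPM, a log2 fold change of 1.15 ± 0.13. In each of the 3 genes both neurite libraries were above both soma libraries. Rpl31 and Rplp1 followed with 1.25 ± 0.13 and 1.29 ± 0.16. Rpl22l1 had the lowest value of the set, -0.47 ± 0.19, with 78.6 and 53.2 CPM in soma and 46.8 and 47.2 CPM in neurites (adjusted p = 0.127, edgeR).

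Markers of other cells differed between these fractions as well. The median log2 fold change was -0.15 for astrocyte markers, with 4 of 11 called higher, 0.46 for the oligodendrocyte lineage with 2 of 7 called, 0.079 for 5 microglia markers tested with 1 called, 0.32 for fibroblast and vessel markers with 8 of 9 above 0 and none called, and 0.058 for neuronal markers with 2 of 10 called higher and 1 lower. Their part in the result was not tested. The number of ribosomal protein calls depended on single libraries. It was 18 without WT KCl neurite replicate 1 (2.60% of all genes) and 53 without WT KCl soma replicate 1 (7.12% of all genes), whose share of ribosomal protein counts (1.47%) was above that of replicate 2 (1.16%). It was 0 in the fit of all 16 libraries, with 0% of all genes called.

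Whether KCl changed these mRNAs within a fraction was tested next, with the 2-fold limit that the study set for this treatment. In WT soma, 1 of 82 genes was called higher, Rpl22l1, and 0 lower, also 0 by DESeq2 and 0 at an unadjusted p of 0.05 or less (14.5% of all genes). Among all 24060 genes tested, 3.74% were called higher and 2.96% lower. Rpl22l1, a paralog of Rpl22 that can take its place in the large subunit, had 32.95 and 27.7 CPM in Ctrl soma and 78.6 and 53.2 CPM in KCl soma. Both KCl libraries were above both Ctrl libraries, and the log2 fold change was 1.12 ± 0.19 (adjusted p = 0.00302, edgeR). Rpl22 itself had 56.8 and 55.8 CPM in Ctrl and 59.9 and 51.1 CPM with KCl, a log2 fold change of -0.020 ± 0.11.

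The other genes moved little in WT soma. The median log2 fold change was 0.19, against 0.0087 for all genes, and 72 of 82 were above 0 (50.9% of all genes). At any fold, Rpl21 also passed the adjusted p (as did 6.13% of all genes in this direction), with 129 and 126 CPM in Ctrl and 190 and 157 CPM with KCl, a log2 fold change of 0.45 ± 0.12 (adjusted p = 0.0278, edgeR). By replicate the median was 0.28 in the first pair of libraries and 0.059 in the second. Without WT KCl soma replicate 1 the median was 0.013, and Rpl22l1 had a log2 fold change of 0.84 ± 0.16 (adjusted p = 0.00781, edgeR), under the 2-fold limit, where 3.83% of all genes were called higher. In the fit of all 16 libraries its log2 fold change was 1.20 ± 0.56 (adjusted p = 0.572), where 1.33% of all genes were called higher. The astrocyte markers had a median log2 fold change of 0.26 in WT soma with KCl, with 10 of 11 above 0 and 1 called, and their part in the result was not tested.

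In WT neurites no ribosomal protein gene was called with KCl by edgeR or DESeq2, and none had an unadjusted p of 0.05 or less, where 12.9% of all genes were higher and 9.91% lower. The background of calls was 3.33% and 1.70% of 22059 genes, higher and lower. The fold changes lay in a narrow band from -0.21 to 0.27 on the log2 scale, with a median of -0.045. The smallest p belonged to Rps29, with 262 and 314 CPM in Ctrl and 324 and 333 CPM with KCl (log2 0.27 ± 0.16, adjusted p = 0.338, edgeR), and to Rpl7l1 (log2 -0.21 ± 0.13, adjusted p = 0.357). In 54 of the 82 genes both KCl libraries were below both Ctrl libraries, which holds for 33.6% of all genes. This count used CPM with the TMM factors of all 16 libraries. In the fit of all 16 libraries the median was -0.085, and with libraries left out in turn it ran from -0.14 to 0.042.

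The difference between the KCl effect in neurites and in soma was tested directly in WT, with the insert as a term. Soma and neurite libraries of the same replicate number were taken as the same insert, which the labels do not state. By the rule of the study for this test (1.5-fold at an unadjusted p of 0.05 or less), 1 gene was called lower, Rpl22l1, and 0 higher, also 0 by DESeq2. Among all 23200 genes 1.35% were called lower and 2.00% higher, so a share of 1.22% for the ribosomal protein genes is near the background. The neurite enrichment of Rpl22l1 differed by -0.90 ± 0.26 on the log2 scale (adjusted p = 0.999, edgeR). The differences of 79 of the 82 genes were below 0 (43.5% of all genes), with a median of -0.23 against 0.049 for all genes, and the adjusted p of every gene was 0.999. Markers of other cells had negative medians as well, -0.29 for astrocytes (10 of 11 below 0), -0.45 for the oligodendrocyte lineage, -0.52 for microglia and -1.04 for fibroblasts and vessels, and their part in the result was not tested. Without WT Ctrl replicate 2 the median was -0.070 and 0 genes were called (2.03% of all genes lower), and without WT KCl replicate 1 it was -0.093 with 0 called (1.38% lower). Without WT KCl replicate 2, 4 genes were called lower (1.31% of all genes), and without WT Ctrl replicate 1, 3 were called lower and 1 higher (3.08% and 4.02%).

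**Figure D4:**
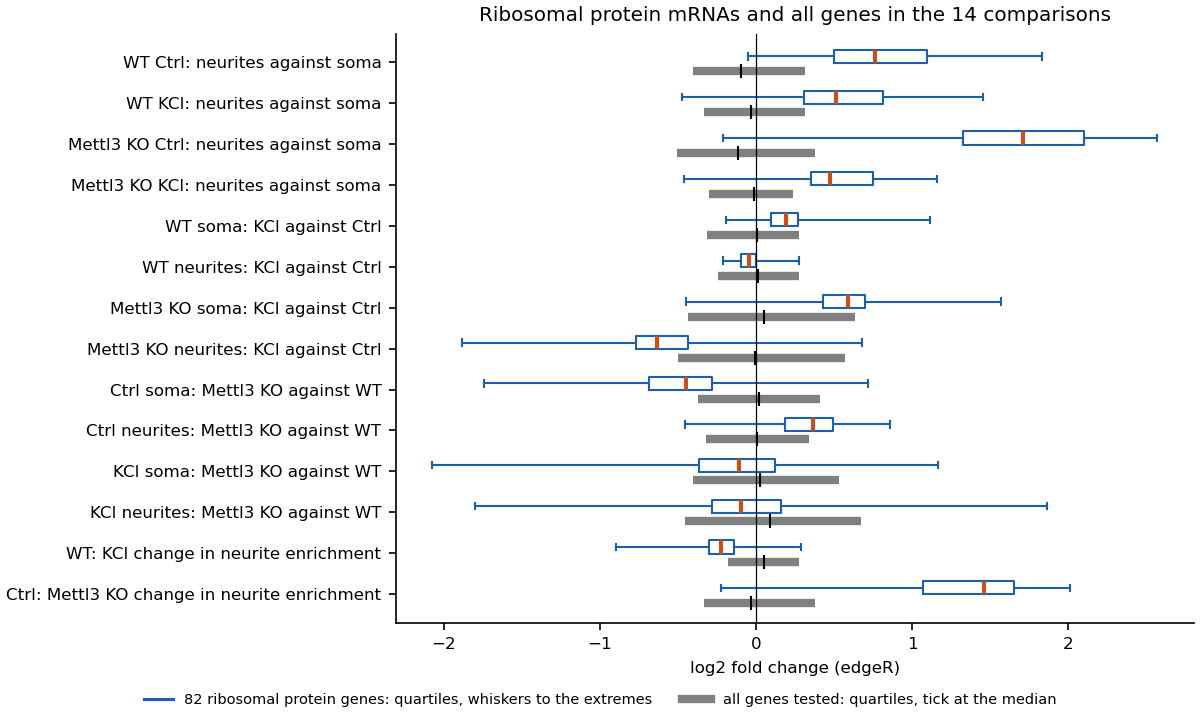
Log2 fold changes (edgeR, x axis) in the 14 comparisons (y axis). Blue boxes give the quartiles of the 82 ribosomal protein genes with whiskers to the lowest and highest gene and an orange median, and grey bars give the quartiles of all genes tested with a tick at their median. The medians of the ribosomal protein genes run from -0.63 (Mettl3 KO neurites, KCl against Ctrl) to 1.71 (Mettl3 KO Ctrl, neurites against soma, 0.94 without soma replicate 2), and those of all genes from -0.11 to 0.090.

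In Mettl3 KO Ctrl neurons no gene at all was called between neurites and soma, 0 of 22557, so the background is 0 in both directions. Of the ribosomal protein genes, 41 were higher at an unadjusted p of 0.05 or less by edgeR, against 3.91% of all genes, 0 were lower, against 1.58%, and DESeq2 called 0, with 0.0532% of all genes called higher. The median log2 fold change was 1.71. It was 0.94 without soma replicate 2, the library with few short mRNAs, again with 0 called (0% of all genes) and with 40 genes higher at an unadjusted p of 0.05 or less (2.49% of all genes). It was 3.77 without soma replicate 1, where 69 genes were called higher, as were 4.99% of all genes. By replicate number it was 1.21 and 3.45. Rpsa had 216 and 86.9 CPM in soma and 703 and 645 CPM in neurites, a log2 fold change of 2.08 ± 0.52 (adjusted p = 0.841, edgeR). Rps2 had 465 and 196 CPM against 2504 and 1315 CPM, a log2 fold change of 2.44 ± 0.62. Without soma replicate 2 the values were 1.55 ± 0.43 for Rpsa and 1.94 ± 0.64 for Rps2. The neurite libraries were above the soma libraries in both genes and in 80 of 82 in all, against 23.7% of all genes, and in all 82 when soma replicate 2 was left out, against 42.0% of all genes. The astrocyte markers had a median log2 fold change of 0.68 in this comparison, the oligodendrocyte lineage one of 0.36, microglia one of 0.15 and fibroblasts and vessels one of -0.43, and their part in the result was not tested.

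In Mettl3 KO KCl neurons the count of calls was 0 as well, again with 0 among all 23152 genes, 0 ribosomal protein genes at an unadjusted p of 0.05 or less (0.0562% of all genes were higher and 0.514% lower) and 0 by DESeq2. The median log2 fold change was 0.48, 79 of 82 genes were above 0 (48.4% of all genes), and 72 had both neurite libraries above both soma libraries, which holds for 11.1% of all genes. Rpsa had 213 and 188 CPM in soma and 333 and 490 CPM in neurites (log2 0.98 ± 0.51). Rps2 had 350 and 387 CPM against 562 and 1084 CPM (log2 1.10 ± 0.60). The lower neurite value of both genes was in replicate 1, the library with 18711 CPM of astrocyte and 6963 CPM of oligodendrocyte lineage markers. Their part in these values was not tested. Without both replicate 1 fractions the median of the set was 0.76, again with 0 called. With soma and neurites of the same replicate number taken as 1 insert, and the insert as a term, the number called was 0 (0% of all genes) and the median 0.46, and 2 genes, Rps2 (log2 1.03 ± 0.35) and Rpsa (log2 0.95 ± 0.40), were higher at an unadjusted p of 0.05 or less, against 0.441% of all genes.

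KCl against Ctrl within Mettl3 KO fractions gave 0 calls in soma and 0 in neurites by edgeR, where 0% of all genes were called. DESeq2 also called 0 of the 82, with 0.925% of all genes called higher and 0.215% lower in soma and 1.01% and 0.126% in neurites. At an unadjusted p of 0.05 or less 0 ribosomal protein genes passed, against 3.72% of all genes higher and 2.88% lower in soma and 4.23% and 2.04% in neurites. In soma the median log2 fold change was 0.59, but -0.042 in the first pair of libraries and 2.44 in the second, and -0.15 without Ctrl soma replicate 2. Rpl22l1 had 33.4 and 6.79 CPM in Mettl3 KO Ctrl soma and 39.9 and 62.3 CPM with KCl, with the smallest p of the set (log2 1.34 ± 0.69, adjusted p = 0.751, edgeR). Rpl7 came next with 0.84 ± 0.51. Without Ctrl soma replicate 2 the values were 0.60 ± 0.46 for Rpl22l1 and 0.30 ± 0.40 for Rpl7. In neurites the median was -0.63, with -0.89 in the first pair and -0.32 in the second, and both KCl libraries were below both Ctrl libraries in 76 of 82 genes, against 22.7% of all genes. Rps12 had 452 and 211 CPM in Ctrl and 72.4 and 104 CPM with KCl, and Rps2 had 2504 and 1315 CPM against 562 and 1084 CPM. Their log2 fold changes were -1.88 ± 0.90 and -1.19 ± 0.60, with an adjusted p of 0.737 for each (edgeR). Replicate 1 of KCl is the library with high glial markers, and without it the median was -0.51, with -1.63 ± 1.14 for Rps12 and -0.78 ± 0.70 for Rps2. The markers of astrocytes had a median log2 fold change of 0.94 in this comparison, those of the oligodendrocyte lineage 2.43, of microglia 2.24, of fibroblasts and vessels 3.57 and of neurons -0.51. In soma these medians were 1.53, 3.28, 2.698, 1.29 and -0.42, in the same order. Their part in these values was not tested.

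Mettl3 KO was compared with WT in each fraction and treatment, to ask whether losing the m6A writer goes with a change in these mRNAs. By edgeR, 0 of 82 genes were called in any of the 4 comparisons. The background was low, with 0.0632% of all genes called higher and 0.122% lower in Ctrl soma, 0.0642% and 0.124% in Ctrl neurites, 0.0458% and 0.166% in KCl soma and 0.102% and 0.338% in KCl neurites. At an unadjusted p of 0.05 or less, 2 genes were higher and 4 lower in Ctrl soma, 0 and 0 in Ctrl neurites, 0 and 4 in KCl soma and 0 and 2 in KCl neurites. Of all genes, 4.54% and 4.43%, 2.76% and 4.71%, 8.22% and 6.27%, and 15.1% and 9.08% were higher and lower by this rule, in the same order. Without Mettl3 KO Ctrl soma replicate 2 the tally in Ctrl soma was again 2 higher and 4 lower, against 2.88% and 4.09% of all genes. DESeq2 called 0 of the 82 in Ctrl soma (0.804% of all genes higher and 0.952% lower) and 0 in Ctrl neurites (0.527% and 0.908%). It called 2 lower, Rps28 and Rps29, in both KCl comparisons, which is 2.44% of the set, and 0 higher. Of all genes it called 1.94% lower and 2.29% higher in KCl soma and 4.54% lower and 7.01% higher in KCl neurites, so the share of the set is near or below the background. In simulated data for the Ctrl soma comparison, all 16 libraries were in the fit. Of genes changed by 2-fold 0% were recovered, and of genes changed by 4-fold 8%. Most changes of 4-fold would therefore have been missed as well, and the 0 calls there do not exclude them.

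Rps29 and Rps28, which encode small proteins of the 40S head, had the smallest p in 3 of the 4 comparisons. Rps29 had 129 and 107 CPM in WT Ctrl soma against 56.3 and 11.4 CPM in Mettl3 KO, and 262 and 314 CPM in WT Ctrl neurites against 182 and 241 CPM. With KCl it had 192 and 144 CPM in WT soma against 37.7 and 42.2 CPM, and 324 and 333 CPM in WT neurites against 106 and 80.6 CPM. The Mettl3 KO libraries lay below the WT libraries in all 4. The log2 fold changes were -1.74 ± 0.55 and -0.46 ± 0.54 in Ctrl soma and neurites, and -2.07 ± 0.56 and -1.80 ± 0.55 in KCl soma and neurites. Without Mettl3 KO Ctrl soma replicate 2 the value in Ctrl soma was -1.02 ± 0.30, with an adjusted p of 0.459 in edgeR. The edgeR adjusted p was 0.346, 0.961, 0.181 and 0.122, and the DESeq2 adjusted p in the KCl comparisons was 0.0123 and 0.0185.

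Rps28 had log2 fold changes of -1.72 ± 0.55 in Ctrl soma, -0.40 ± 0.53 in Ctrl neurites, -1.82 ± 0.55 in KCl soma and -1.59 ± 0.54 in KCl neurites, and -0.99 ± 0.27 in Ctrl soma without replicate 2 of Mettl3 KO. With Mettl3 KO Ctrl soma replicate 2 taken out of the fit, a step chosen after seeing the data, edgeR called 5 genes lower in KCl soma (Rpl38, Rpl39, Rps21, Rps28 and Rps29) and 5 in KCl neurites (Rpl37, Rpl38, Rps21, Rps28 and Rps29). Each is 6.1% of the set, against 0.499% of all genes called lower in KCl soma and 1.11% in KCl neurites by the same fit. In all 4 comparisons, 5 genes (Rpl37, Rpl38, Rps21, Rps28 and Rps29) had both Mettl3 KO libraries below both WT libraries. That is 6.1% of the set against 6.94% of 20895 genes, a share near the background. Their mRNAs have 835, 457, 394, 392 and 390 bases, in the same order. Rpl4 was the 1 gene with Mettl3 KO above WT in all 4, against 4.54% of all genes. With Mettl3 KO Ctrl soma replicate 2 left out, the 5 genes below WT were the same, against 8.96% of all genes, and 4 genes (Rpl4, Rpl10, Rpl14 and Rpl15) were above, against 6.28%.

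Over the 82 genes the log2 fold change had a Spearman rho with mRNA length of 0.58 in Ctrl soma and 0.16 in Ctrl neurites. With KCl it was 0.39 in soma and 0.27 in neurites. Over all protein-coding genes rho was -0.057, -0.26, -0.070 and -0.13, in the same order. The part of length in these values was not tested. The set as a whole went in different directions in the 4 comparisons. Its median log2 fold change was -0.45 in Ctrl soma, and -2.52 and 0.29 without the first and the second Mettl3 KO soma library. In Ctrl neurites the median was 0.36, with 72 of 82 genes above 0 (50.6% of all genes) and 55 genes with both Mettl3 KO libraries above both WT libraries (24.1% of all genes). The smallest p there were those of Rpl15, with 369 and 394 CPM in WT and 653 and 477 CPM in Mettl3 KO (log2 0.54 ± 0.31, adjusted p = 0.799, edgeR), and of Rpl22 (log2 0.34 ± 0.20). Astrocyte markers had a median log2 fold change of 0.83 in Ctrl neurites and 0.95 in Ctrl soma, with 11 of 11 above 0 and none called in each, and neuronal markers had a median of -0.50 and -0.17. Their part in these values was not tested. In KCl soma and neurites the medians were -0.11 and -0.098. Rps27l had the highest value in KCl neurites, with 27.8 and 25.9 CPM in WT and 162 and 31.6 CPM in Mettl3 KO (log2 1.86 ± 0.93), so that replicate 1 alone carried it. The 7 oligodendrocyte lineage markers had a median log2 fold change of 5.06 in the same comparison and 7 microglia markers one of 2.79, and their part in these values was not tested.

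The change of neurite enrichment in Mettl3 KO Ctrl neurons was tested with the insert as a term, again taken from the replicate number. By the unadjusted rule of the study, 12 genes were called higher and 0 lower, against 2.91% and 1.28% of 22942 genes, and 0 genes passed an adjusted p. Their adjusted p in edgeR was 0.934. Among the 12 were Rps27l, Rpl7, Rpl7a, Rps13, Rpl18, Rps24, Rps18, Rpl17, Rpl27, Rps28 and Rpl36, with log2 differences from 0.98 to 2.01. Rps27l had 32.2 and 32.7 CPM in WT soma, 35.4 and 30.3 CPM in WT neurites, 43.4 and 4.34 CPM in Mettl3 KO soma and 75.4 and 46.1 CPM in Mettl3 KO neurites. Its difference was 2.01 ± 0.78, and that of Rpl7 was 1.05 ± 0.43. Without the insert of Mettl3 KO Ctrl replicate 2 these were 0.70 ± 0.32 and 0.44 ± 0.29, and the 11 genes lay between 0.40 and 0.70.

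The number called depended on single inserts, among them the 1 with the soma library that stood apart. The median difference of the set was 1.46. Without the insert of replicate 1 of Mettl3 KO Ctrl it was 2.78 with 76 genes called higher, as were 13.5% of all genes, and without that of replicate 2 it was 0.30 with 0 called, against 4.76% of all genes. Without the WT Ctrl insert of replicate 1 or 2 the number called was 1 or 0 (1.72% and 0.590% of all genes), with medians of 1.29 and 1.61. DESeq2 called 63 genes higher (5.85% of all genes), and 0 were called in the fit without the insert term (0.588%) and with the 8 Ctrl libraries alone (0.806%). Among the 82 genes the difference had a Spearman rho of -0.70 with mRNA length, and for 919 other protein-coding genes with mRNAs under 1000 bases the median difference was 1.00. Without the insert of Mettl3 KO Ctrl replicate 2 the rho was -0.36 and the median of 926 such genes 0.26. Markers of other cells had negative medians, -0.16 for astrocytes, -0.30 for the oligodendrocyte lineage, -0.45 for microglia and -1.44 for fibroblasts and vessels. Neuronal markers had a negative median too, -0.31, with 1 of 10 above 0 and Map2 called lower. The part of these markers in the result was not tested.

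DART-seq placed m6A sites in 33 of the 82 mRNAs (40.2%), and 34.8% of the protein-coding genes in the enrichment tables have such a row. The deposited tables hold averages over libraries, so there are no replicates to compare. The 33 mRNAs carry 47 distinct sites, and 22 of them are listed with 1 site, which is so for 32.3% of all 5643 RNAs listed. The 6 sites with the highest editing are shown with 12 bases on each side of the edited C (GRCm38, read 5′ to 3′ on the strand of the gene), with the RAC motif that holds the methylated A and the edited C in capitals.
Rps15a, chr7:118105458-118105482, minus strand: tagaaactctGACttaagacataat
Rpl5, chr5:107908483-107908507, plus strand: gggtgtctagGACgtttcattttta
Rpl3, chr15:80081444-80081468, minus strand: gagttgctttGACactgaagtggca
Rpl4, chr9:64178504-64178528, plus strand: aacatgtggtGACaaacccttgtgt
Rpl22, chr4:152334050-152334074, plus strand: taaagtggctGACacatggctactg
Rpl23, chr11:97777649-97777673, minus strand: aaccaaaaaaAACaaaacacgcatt
The authors' mean editing at these sites, in the same order, was 38.5%, 12.6%, 10.6%, 9.59%, 8.45% and 8.09%. The Rpl3 site lies in an intron of the principal transcript and in an exon of 1 of 7 annotated transcripts, and the other 5 lie in the 3′UTR. The Rps15a site lies in an exon of 2 of 7 annotated transcripts.

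Most sites were edited at low levels. Of the 47 sites, 38 were under 5%, with a median of 2.28%. By the principal GENCODE M21 transcript, 19 lay in the 3′UTR, 17 in the coding sequence, 5 in the 5′UTR, 5 in an intron and 1 past the annotated end of Rpl28, by 4949 bases. The motif was AAC at 24 sites and GAC at 23. Each RNA also has a score, which equals the editing of the site within 0.01 percentage points in 18 of the 22 mRNAs with 1 site but not always the sum over sites (Rps15a has a score of 25.75% in WT and 5 sites that sum to 53.2%). The median score in WT was 3.003% for the 33 mRNAs against 10.3% for all RNAs listed. A score of at least 10% was reached by 5 of the 33 mRNAs (Rpl3, Rpl4, Rpl5, Rpl22 and Rps15a) and by 51.75% of all RNAs. Rpl34 and Rpl37 have their only site listed 2 times, and their scores count it 2 times.

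**Figure D5:**
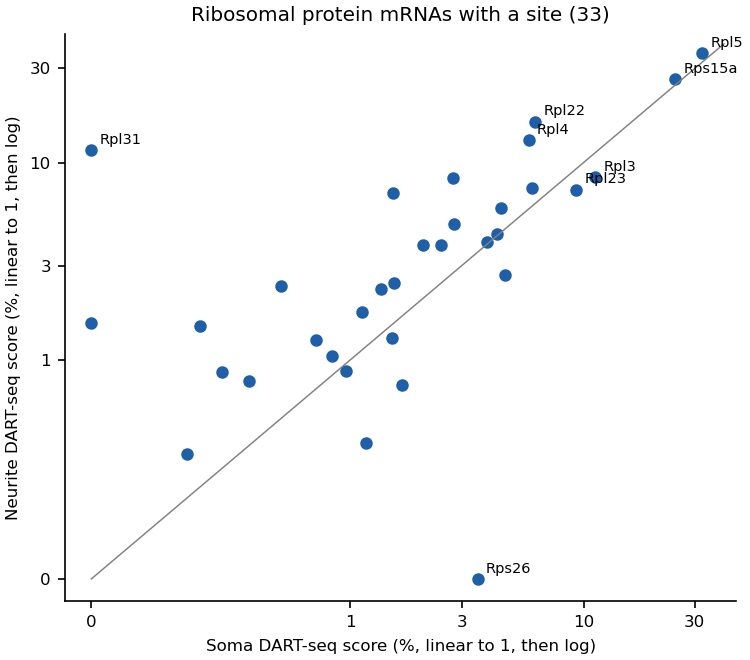
DART-seq score in neurites against soma, in percent, for the 33 ribosomal protein mRNAs with a site (both axes linear up to 1% and logarithmic above; grey line, equal scores). In 25 mRNAs the neurite score is the higher, with Rpl31 at 0% in soma and 11.6% in neurites as the widest gap, and Rps26 at 3.52% in soma and 0% in neurites on the other side.

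The neurite score was above the soma score in 25 of the 33 mRNAs, and in 68.8% of all RNAs. The medians were 1.66% in soma and 2.68% in neurites, against 8.88% and 11.6% for all RNAs. The widest gaps were those of Rpl31, Rpl22 (6.21% and 16.1%) and Rpl4 (5.81% and 12.95%), 3 mRNAs with a log2 neurite enrichment of 1.45, 0.48 and 0.87 in WT Ctrl. The paper describes the soma and neurite averages of DART-seq as holding both Ctrl and KCl samples. The scores and the WT Ctrl fold changes set beside them are therefore not from the same conditions. The 2 mRNAs with the highest scores had similar values in both fractions. Rpl5 had 32.4% in soma and 36.0% in neurites, and Rps15a had 24.65% and 26.4%. They were also among the genes not called in neurites of WT Ctrl, with log2 fold changes of 0.052 and 0.37. Of the other mRNAs with a WT score of at least 10%, Rpl3 was called, and Rpl4 and Rpl22 had 0.87 and 0.48. The Rpl5 sites lie in an exon of 1 of 6 annotated transcripts, and the most edited Rps15a site in one of 2 of 7. The fold changes are those of the whole gene. In Mettl3 KO the median score was 1.06%. Sites were kept by the authors only where editing in WT exceeded that in Mettl3 KO, so a lower score there follows from the selection. Stalk mRNAs carried sites too, with WT scores of 4.33% for Rplp0, 5.44% for Rplp1 and 4.03% for Rplp2.

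Genes related to the ribosome were taken as lists. Fau, which encodes a 40S protein fused to a ubiquitin-like one, was called higher in WT Ctrl neurites with a log2 fold change of 0.77 ± 0.15, and Rack1, a scaffold on the 40S subunit, had 0.27 ± 0.12 and was not called. Among 20 other TOP mRNAs, 5 were called higher (Eef1a1, Eef2, Eif3f, Pabpc1 and Snhg8, of which Eef1a1 and Eef2 are elongation factors) and 1 lower (Snhg1), with a median of 0.28. Among 35 ribosome biogenesis factors, which act mostly in the nucleolus, 0 were called higher and 5 lower (Gnl3, Ltv1, Nob1, Nop56 and Riok1), with a median of -0.28. Among 15 regulators of TOP mRNA translation, 3 were called higher (Akt1s1, Eif4ebp1 and Eif4ebp2) and 3 lower (Rps6kb2, Tia1 and Tial1), with a median of -0.16. These counts stand beside 9.01% higher and 4.54% lower among all genes.

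With KCl in WT soma, 1 of the 20 other TOP mRNAs was called higher (Snhg1). Of the 35 biogenesis factors 1 was higher (Fbl, the methyltransferase of nucleolar RNA), and of the 15 regulators 1 was lower (Tia1). Among all genes, 3.74% were called higher and 2.96% lower. In WT neurites the same lists gave 1 higher among the other TOP mRNAs (Snhg1), 2 higher among the biogenesis factors (Fbl and Sbds) and 1 higher among the regulators (Rheb). Among all genes, 3.33% were called higher and 1.70% lower there. In the 4 comparisons of Mettl3 KO with WT, neither Fau nor Rack1 was called by edgeR.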

How the data were processed

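Neurite and soma RNA of 8 groups was sequenced in 16 RNA-seq libraries, 2 per group. The authors aligned the reads with STAR 2.7.7a and made the deposited count table with featureCounts 2.0.1 (Ensembl release 97, GRCm38), unstranded and with multi-mapped reads counted, so counts of genes with near-identical copies, among them 239 ribosomal protein pseudogenes, are uncertain. The authors' deposited DESeq2 tables also hold a mean count signal, used here only to read gene names and types, and fold changes and p-values of their own comparisons, which were not used. The deposited DART-seq tables give a score per RNA and a fraction of C-to-U editing per site, made by the authors from averages of libraries, and the number of sites, so their depth is unknown.

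The ribosomal protein genes and the gene lists were chosen with earlier results of these data known. Counts of genes with a mean of at least 10 in the libraries compared were tested with the quasi-likelihood test of edgeR 4.0.16 (R 4.3.3, TMM factors). The p-values were adjusted by Benjamini-Hochberg over all genes tested. Medians by replicate number used log2 CPM with a prior count of 2. Neurites against soma and KCl against Ctrl were fitted on the 8 libraries of a genotype, Mettl3 KO against WT and its change of enrichment on all 16. Genes were called at an adjusted p of 0.05 or less and 1.5-fold, or 2-fold for KCl. Changes of neurite enrichment were called at 1.5-fold and an unadjusted p of 0.05, with the insert as a term. The same replicate number was taken as the same insert, which is an assumption, as the labels do not state it. Ratios between libraries used CPM + 1. In simulated data for WT Ctrl neurites against soma (22577 genes), 76% of 2-fold and 100% of 4-fold changes were recovered, with 11 false calls. Alternatives were RLE factors, TMM without the ribosomal protein genes, no filter, a mean count of at least 100, DESeq2 1.42.0, other sets of libraries, the replicate block, removal of the trend with length and leaving out each library. A fit without Mettl3 KO Ctrl soma replicate 2, and overlaps of libraries without it, were added after the data were seen.

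Genes named with values were the stalk proteins and Rpsa, paralog pairs, the 5 highest and 5 lowest in WT Ctrl neurites, the called genes (at most 5 per direction) and the 2 with the smallest p in each comparison, the genes with a DART-seq site, and the 3 highest and 3 lowest levels per kilobase. A few genes are not reported here by name. Other genes named were chosen after their values were seen. Principal mRNA lengths came from GENCODE M21 and start sites from RefSeq. The 2 litters of a group differ, and Ctrl and KCl neurons share a litter. Fits without an insert term treat soma, neurite, Ctrl and KCl libraries as independent. Their p-values rest on a spread pooled over the groups fitted, which is not the spread between litters alone. All 37 mitochondrial genes were at 0 in the deposited counts.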

Additional observations from a re-analysis of the deposited data

Results flagged for a closer look

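The test of the difference between fractions or genotypes picked out values with an unadjusted p of 0.05 or less (edgeR), none of which passed adjustment. In WT, the KCl effect on Rpl22l1 was lower in neurites than in soma by a log2 difference of -0.90 (adjusted p = 0.999, edgeR). In Ctrl neurons, 12 genes, 11 of them named here, had a larger neurite enrichment in Mettl3 KO than in WT, with an adjusted p of 0.934 for each. Their log2 differences were 2.01 for Rps27l, 1.05 for Rpl7, 0.98 for Rpl7a, 1.49 for Rps13, 1.51 for Rpl18 and 1.34 for Rps24. They were 1.76 for Rps18, 1.74 for Rpl17, 1.60 for Rpl27, 1.76 for Rps28 and 1.82 for Rpl36. Without the insert of Mettl3 KO Ctrl replicate 2, whose soma library had few short mRNAs, 0 of the 82 genes were called and the differences of these 11 genes lay between 0.40 and 0.70.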

How the results depend on the processing

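Of 177 alternative counts of called genes over 14 comparisons, 145 stayed within 1.5 times the reported count. Of 189 medians 172 moved by less than the spread, 14 by more and 3 changed sign, and of 546 values of named genes 475 kept direction and call, 49 lost the call, 13 gained it and 9 changed sign. The cause was not tested. With all 16 libraries in the fit, the calls were 0 for WT Ctrl and WT KCl neurites against soma, 0 for KCl in WT soma and 0 for the KCl change of enrichment, and Rpl7l1 and Rps27l in WT Ctrl had 0.046 and 0.048. With the 4 libraries alone they had 0.027 and 0.031. With no filter the calls were 16 for Mettl3 KO Ctrl neurites against soma, against 0.218% of all genes. For Mettl3 KO in KCl soma 1 gene was called lower, against 0.181%. The Mettl3 KO change of enrichment had 73 with no filter (4.48% of all genes), 21 with RLE factors (3.47%) and 4 at a mean count of 100 (2.97%). It had 63 with DESeq2 (5.85%), 0 with the 8 Ctrl libraries (0.806%) and 0 by adjusted p (0%). The KCl change of enrichment also had 0 by adjusted p. DESeq2 called 2 genes for Mettl3 KO in KCl soma and 2 in KCl neurites, and without Mettl3 KO Ctrl soma replicate 2 in the fit, chosen after seeing the data, edgeR called 5 and 5.

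With libraries left out in turn, the calls ranged from 18 to 53 for WT KCl neurites against soma, 0 to 69 for Mettl3 KO Ctrl, 0 to 1 for KCl in WT soma, 0 to 71 for Mettl3 KO in Ctrl soma, 0 to 1 in KCl neurites (Rpl7l1), 0 to 4 for the KCl change and 0 to 76 for the Mettl3 KO change of enrichment. These counts come from fits that leave 1 library in a group. For the 71 in Ctrl soma and for Rpl7l1 in KCl neurites, no share of all genes called is given. Those 2 counts can therefore not be set against a background. Medians ranged from -0.15 to 2.44 for KCl in Mettl3 KO soma. For Mettl3 KO against WT they ranged from -2.52 to 0.29 in Ctrl soma and from -0.27 to 0.079 in KCl soma. The log2 fold change in WT Ctrl ranged from -0.059 to 0.045 for Rpl7l1 and from -0.13 to 0.039 for Rps27l. For Rps10 it ranged from -0.093 to 0.20.

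Replicate numbers are shared by all groups. Deviations of same-numbered libraries correlated (17114 genes) from -0.134 to 0.896 between soma and neurites, -0.0729 to 0.171 between Ctrl and KCl and -0.00947 to 0.217 between WT and Mettl3 KO. With the replicate block the calls were 52 for WT Ctrl, 33 for WT KCl and 1 for KCl in WT soma, as without it, and the median of Mettl3 KO Ctrl neurites against soma was 2.31. The Mettl3 KO change of enrichment had 0 calls with no replicate block. With 2 libraries per group, 0% of simulated 2-fold changes were recovered for Mettl3 KO in Ctrl soma, so changes of that size were not detectable there, and the other Mettl3 KO comparisons were not simulated. Where a group is left with 1 library, it is assumed to vary like the others.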
